A study of Strongylocentrotus purpuratus with 8 samples.

Results

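Long unmethylated domains of the purple sea urchin genome (Strongylocentrotus purpuratus) are described here from whole-genome bisulfite sequencing. A domain was an unbroken run of at least 20 adjacent windows of 500 bp, so 10 kb or more. Each window had at least 20 calls at CpG sites pooled over 6 embryo libraries, and at most 20% of those calls were methylated. A call is 1 read at 1 CpG site. The rule found 7580 domains among 127426 unmethylated runs of any length, the other 119846 runs being shorter than 20 windows. The domains held 270451 windows, or 135 Mb, which is 17.8% of the 1522405 windows with a listed CpG site and 37.8% of the 716049 windows that were unmethylated in embryos. They contained 3617989 of the 14943298 listed CpG sites (24.2%). Embryo calls chose the domains, so their embryo levels, and differences between embryos within them, are given as description and carry no test. Adult calls were not used by the rule.

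The study profiled adult tube feet, the hydraulic appendages with which the adult walks and clings, and embryos at 24, 48 and 72 hours post fertilisation (hpf). Each of the 4 groups had 2 untreated libraries, called biological replicates by the submitters, and all 8 libraries carried a spike-in of unmethylated lambda phage DNA. Whether replicates came from separate animals or cultures is not given in the sources used here, so p-values measure the spread between these libraries, which may be partly technical. Embryos and tube feet are each mixtures of cell types, so a level of 50% cannot be told apart from full methylation in 50% of the cells.

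In the sea urchin, as in many invertebrates, CpG methylation is arranged as a mosaic, in which methylated stretches that often cover the bodies of broadly expressed genes alternate with unmethylated DNA. This differs from vertebrates, where most of the genome is methylated and unmethylated DNA is mostly found in short CpG-rich islands. Methylated cytosines mutate to thymine more readily than unmethylated ones, and CpG sites are lost over evolution from DNA that is methylated in the germ line. Bisulfite treatment turns unmethylated cytosines into bases read as thymine and leaves methylated cytosines to be read as cytosine.

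The libraries held between 75377025 and 126381599 calls at CpG sites, with a median coverage of 3 to 7 calls per listed site. On lambda DNA, 0.112% to 0.296% of calls were read as methylated, which measures incomplete conversion together with sequencing error. The library of 24 hpf replicate 2 stood apart from the other 7. It listed the fewest sites (8652151, against 10984359 or more elsewhere), and its overall level was 42.2%, against 21% to 29.8% in the other libraries. Its own value is given beside the main results that it moves.

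Most domains were close to the minimum length. The median domain was 14.5 kb long (quartiles 11.5 and 20.0 kb), and the longest reached 118.0 kb. At the lower limit there were 540 runs of exactly 20 windows, with a median embryo level of 0.521%, and just below it 597 runs of 19 windows, or 9.5 kb, with a median of 0.479%. Runs on either side of the limit were thus alike in number and level, and the limit of 10 kb marks no break in the distribution. Domains of 20 kb or more numbered 1996 (26.3%) and held 44.5% of the total length. There were 706 domains of 30 kb or more, 122 of 50 kb or more, 23 of 75 kb or more and 8 of 100 kb or more. Without 24 hpf replicate 2 the rule found 7473 domains with the same median and longest length.

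**Figure D1:**
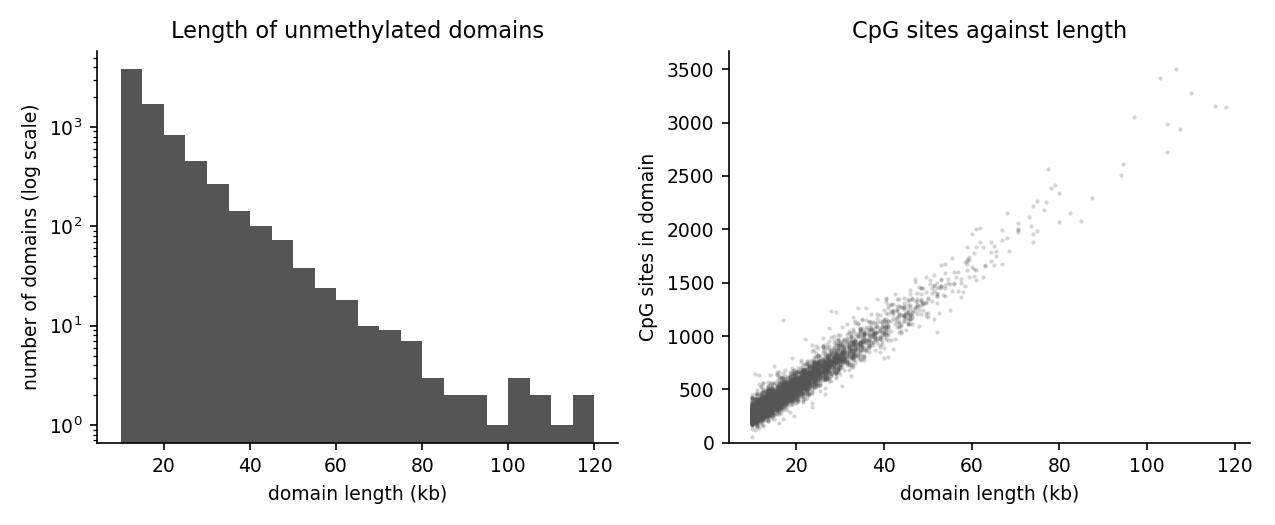
Length of the 7580 unmethylated domains as a histogram in bins of 5 kb with a log-scaled count (left), and the number of CpG sites in each domain against its length in kb, 1 point per domain (right). Counts fall steadily from 10 kb to the longest domain of 118.0 kb, and CpG number rises nearly in proportion to length, up to 3501 sites.

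The 4 longest domains were evenly unmethylated in every library. The longest, on Scaffold1326 from 51501 to 169500 (118.0 kb, 3146 CpG sites), was at 0.361% and 0.400% in the adult libraries and between 0.236% and 0.467% in the 6 embryo libraries. The domain on Scaffold100 from 429501 to 545000 (115.5 kb, 3154 sites) was at 0.345% and 0.274% in adult tube feet and at 0.224% to 0.756% in embryos. On Scaffold156, the domain from 85501 to 195500 (110.0 kb, 3281 sites) was at 0.374% and 0.297% in adult tube feet and at 0.124% to 0.350% in embryos. The domain on Scaffold50 from 576001 to 683500 (107.5 kb, 2936 sites) was at 0.264% and 0.323% in adult tube feet and at 0.222% to 0.466% in embryos. In 3 of these 4 domains both adult libraries lay within the range of the embryo libraries. In the domain on Scaffold156, adult replicate 1 lay above all embryo libraries and adult replicate 2 among them. No window of the 4 domains reached even 20% in both adult libraries, among 180 to 230 windows per domain with at least 20 calls in each adult library. Coordinates are 1-based and those of the linear scaffolds of build Spur3.1. Genes in the domains were not analysed here.

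Domains were unevenly spread over the assembly. They lay on 2166 of 28819 scaffolds, and 516 scaffolds held 5 or more. The most were found on Scaffold187 and Scaffold4, with 28 domains each, and on Scaffold54, with 25. On Scaffold187 they summed to 558.5 kb, or 56.2% of the sequence up to its last listed CpG site at 993 kb. On Scaffold54 they summed to 603.5 kb (43.3%), and on Scaffold4, a longer scaffold with a last site at 1890 kb, to 529.0 kb (28%). A domain cannot be longer than its scaffold, so scaffold length and the number of domains on it are not independent.

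Most domains ended at a lack of data and not at methylated DNA. Of the 15160 domain ends, 7860 (51.8%) met a window with fewer than 20 embryo calls, and 3920 (25.9%) met a window with no listed CpG site. Only 3210 ends (21.2%) met a window above 20% in embryos, and 170 lay at the end of a scaffold. A methylated window stood at both ends of 371 domains (4.89%) and at neither end of 4741 domains. Of 5414 pairs of neighbouring domains on a scaffold, 870 (16.1%) were separated by 1 window, which had too few calls in 703 cases and was methylated in 167. The lengths are therefore lower limits for most domains. When 1 failing window was bridged, the count became 10026 domains with a total of 228 Mb, a median of 17.0 kb and a longest domain of 241.0 kb.

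Domains were rich in CpG sites relative to methylated DNA. A domain held a median of 392 CpG sites (53 to 3501) at a median density of 26.4 sites per kb, with 90% of domains between 20.9 and 32.9 sites per kb. Per window of 500 bp, domains averaged 13.4 CpG sites, against 12.4 in unmethylated windows outside domains, 8.48 in windows at 80% or more in embryos and 9.82 in all listed windows. Windows with 20 or more CpG sites made up 13.8% of windows in domains, against 13.0% of unmethylated windows outside domains and 5.30% of windows at 80% or more. The rule asked for 20 calls in each of 20 adjacent windows, and a window with more CpG sites collects more calls, so its part in the difference between domains and other unmethylated windows was not tested. Density changed little with length: Spearman's rho between length and CpG sites per kb was 0.11 over the 7580 domains, which share libraries and are not independent.

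The domains of highest CpG density were of different kinds. The densest, on Scaffold518 from 506501 to 523500, held 1148 CpG sites in 17.0 kb (67.5 per kb) and was at 0.344% and 0.300% in adult tube feet and at 0.211% to 0.402% in embryos. Its depth per CpG site was 45.6 times the mean of all sites in adult libraries and 64.3 times that mean in embryo libraries. The domain on Scaffold4475 from 4001 to 14500 (61.7 sites per kb) likewise had 10.5 times the mean depth in adult tube feet and 20.1 times in embryos. What raises the depth at these domains was not tested. The third, on Scaffold4650 from 18501 to 30000 (55.5 sites per kb), had ordinary depths of 0.962 in adult tube feet and 0.855 in embryos, and its level was 2.35% and 1.12% in adult tube feet and 1.91% to 4.10% in embryos. A relative depth of 5 or more in embryos was found in 18 of the 7580 domains.

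At the 3210 ends that met methylated DNA, the level rose from the last window inside to the next window outside. In embryos the rule set this step. Such an end was counted only where the next window was above the highest level allowed in a domain, in pooled embryo calls. The embryo values across the end are therefore a description and do not measure how sharp the border is. Adult calls were not used to place the ends. In the first window outside the domain, the pooled level was 27.5% in adult tube feet, 43.4% at 24 hpf, 38.0% at 48 hpf and 35.3% at 72 hpf. The 24 hpf value joins 33.3% in replicate 1 and 50.8% in replicate 2. In the first window inside, it was 3.29% in adult tube feet, 4.52% at 24 hpf, 3.46% at 48 hpf and 3.40% at 72 hpf. Without 24 hpf replicate 2, at 6.80%, the 24 hpf value there was 2.93%, the lowest of the 4 groups instead of the highest. In the tenth window inside, centred 4.75 kb from the end, it was 0.800% in adult tube feet, 0.774% at 24 hpf (0.526% in replicate 1 alone), 0.731% at 48 hpf and 0.698% at 72 hpf. In all 4 groups the level was thus lower in the tenth window inside than in the first.

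The methylated stretches next to domains were often weak or narrow. The median flanking window was at 36.4% in embryos, 663 of the 3210 were just past the limit at 20% to 25%, and 268 (8.35%) reached 80%. By 1.25 kb outside, the level had dropped to 15.8% in adult tube feet, 23.1% at 24 hpf (18.8% in replicate 1 alone), 20.0% at 48 hpf and 19.6% at 72 hpf. Adult levels of the first outside window were 27.1% and 27.9% in the 2 adult libraries and 32.9% to 50.8% in the 6 embryo libraries, without overlap. Of the 1795 flanking windows with at least 20 calls in each adult library, the median was 22.9% for adult tube feet and 33.8% for embryos, and 700 (39%) were at 20% or less in both adult libraries. At those ends the adult unmethylated stretch ran further than the embryo domain. Flanks were picked for a high embryo level, so this difference carries no test. CpG number changed little across the end, from 12.9 sites in the last window inside to 13.6 in the first outside, and was 11.1 at 1.25 kb outside.

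**Figure D2:**
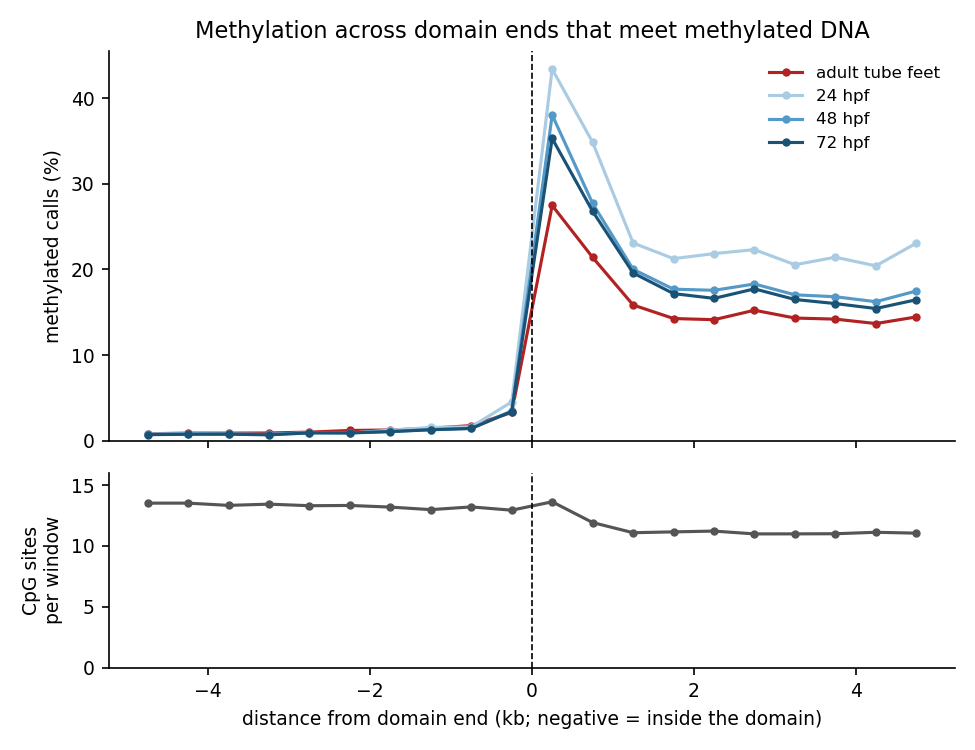
Pooled methylation level (% of calls, top) and mean number of CpG sites (bottom) in windows of 500 bp by distance in kb from the 3210 domain ends that meet a methylated window, with negative distances inside the domain and 1 line per group of 2 libraries. The groups lie between 27.5% and 43.4% in the first window outside and between 3.29% and 4.52% in the first window inside, and the adult line is lowest outside. The 24 hpf line includes replicate 2, without which it is at 33.3% in the first window outside and 2.93% in the first inside.

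Inside the domains, almost no methylation was left in any library. The pooled level was 0.808% and 0.744% in the adult libraries. Embryos at 24 hpf had 0.505% and 1.2%, those at 48 hpf 0.668% and 0.783%, and those at 72 hpf 0.724% and 0.660%. The adult libraries averaged 0.776% ± 0.0452 (SD, n = 2) and the embryo libraries 0.756% ± 0.235 (SD, n = 6). Adult values lay within the range of the 6 embryo libraries, whose upper end was set by 24 hpf replicate 2. Without that library the embryo range ended at 0.783%, below adult replicate 1 and above adult replicate 2. For comparison, windows at 80% or more in pooled embryo calls were at 74.8% ± 0.816 (SD, n = 2) in adult tube feet and 89.1% ± 1.07 (SD, n = 6) in embryos.

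The small remainder was above the level of the lambda spike-in. Domain level minus lambda level averaged 0.526 percentage points (SD 0.186, n = 8, range 0.393 to 0.963) and was positive in 8 of 8 libraries, which include the 2 adult libraries that the rule did not use, at 0.542 and 0.511 points. No test is given, since 6 of the libraries chose the domains. Without 24 hpf replicate 2 it averaged 0.464 points. The rule selected for low embryo levels, which works against such an excess. The remainder was not spread evenly over the domains. In adult tube feet, windows at 5% or more made up 2.67% of the 210779 domain windows with at least 20 calls in each adult library. In embryos they made up 3.20% of all 270451 domain windows. They held 49.1% of the methylated adult calls in the first set of windows and 42.2% of the methylated embryo calls in the second. No methylated call was found in 49.7% of the 210779 domain windows with at least 20 calls in each adult library, or in 31.2% of all domain windows in embryos, where more calls were pooled.

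Levels in domains at the embryo stages overlapped. Stage means (± SD, 2 libraries each) were 0.850% ± 0.488 for 24 hpf, 0.725% ± 0.0815 for 48 hpf and 0.692% ± 0.0455 for 72 hpf. The difference of 72 minus 24 hpf was -0.159 percentage points. Its sign depended on 24 hpf replicate 2, since without that library it was 0.187 percentage points. Single sites were mostly free of methylated calls. Of 168688 domain sites with at least 10 calls in all 8 libraries, 98808 (58.6%) had no methylated call in any library, against 29.9% of all 539235 such sites. At 4 of the domain sites all 6 embryo libraries were at 50% or more, and at 1 site all 8 libraries were.

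**Figure D3:**
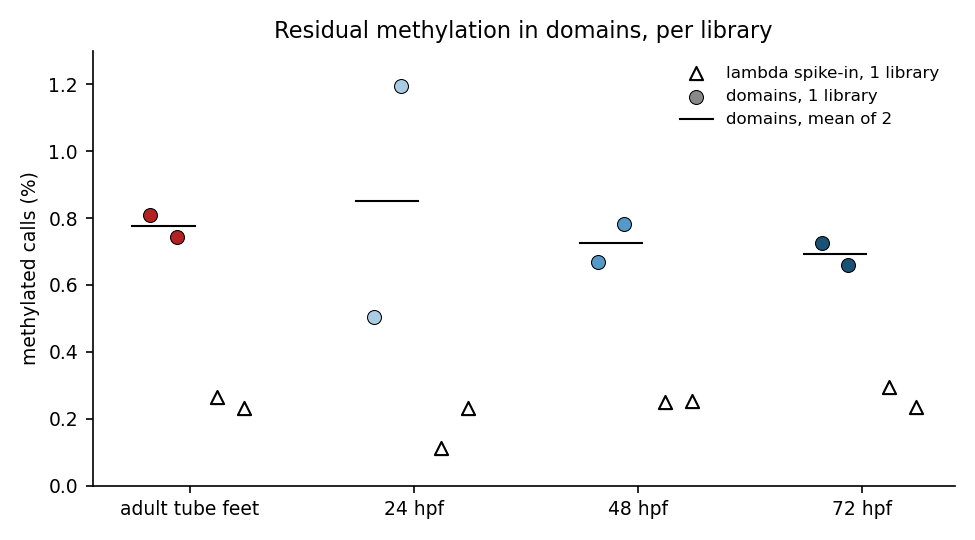
Percentage of methylated calls in domains (filled circles, 1 per library, with the mean of 2 libraries as a line) and on the lambda spike-in (open triangles) for adult tube feet and embryos at 24, 48 and 72 hpf. Every domain level lies above its own lambda level, and the widest gap between replicates, 0.505% against 1.2%, is at 24 hpf.

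Windows methylated in adult tube feet were rare in the domains. Of the 210779 domain windows with at least 20 calls in each adult library, 109 (0.0517%, Wilson 95% interval 0.0429% to 0.0624%) were at 50% or more in both adult libraries. At 80% or more there were 14 windows, at 20% or more there were 804 (0.381%), and 209160 (99.2%) were at 20% or less in both. Adult replicate 1 alone had 169 windows at 50% or more and adult replicate 2 alone had 174. Only 18 windows were at 50% or more in one adult library and at 20% or less in the other, 9 in each direction. In all, 234 windows were at 50% or more in at least 1 adult library, and 109 of them were so in both. Intervals here and below cover counting error only and treat windows or domains as independent. Windows of the same domain are not independent, and there were only 2 adult libraries. Calls also carry no molecular identifiers, and a read can cover several sites. Without the 3 domains that held the most such windows the share was 0.0380%, which is below the interval.

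The same count in embryos was limited by the rule, which left little room for high windows. No domain window was at 50% or more in both libraries of a stage, out of 123823 windows at 24 hpf, 226493 at 48 hpf and 220686 at 72 hpf. As the rule capped the pooled embryo level, no upper limit for these shares is given. In single embryo libraries the share was 0.00227% or less in the 3 replicate 1 libraries, 0.00795% in 48 hpf replicate 2 and 0.000906% in 72 hpf replicate 2. In 24 hpf replicate 2 it was 0.132%, above both adult libraries at 0.0802% and 0.0826%.

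The share of adult-methylated windows was lower in domains than in shorter unmethylated runs, which is given as a description over 2 adult libraries. Among unmethylated windows outside domains, 1517 of 251790 (0.602%, Wilson 95% interval 0.573% to 0.633%) were at 50% or more in both adult libraries. The share was 3.12% in runs of 1 window, 0.873% in runs of 2 to 4, 0.488% in runs of 5 to 9 and 0.160% in runs of 10 to 19 windows. In domains it was 0.0674% in runs of 20 to 39 windows, 0.0248% in runs of 40 to 79 and 0.0592% in runs of 80 or more. The rise in the last class rests on 16 windows, 14 of them in the domain on Scaffold72 described below. Embryo level fell along the same order, being 5.70% in runs of 1 window and 0.528% in runs of 80 or more, and its part in the order was not tested.

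The adult-methylated windows were scattered over 76 of the 7580 domains (1.003%, Wilson 95% interval 0.802% to 1.25%). They formed 91 stretches, of which 83 were a lone window, 5 were 2 windows and 3 were 3 windows or more. The domains on Scaffold72 and Scaffold1393 held 14 and 11 of the windows, and without the 3 domains that held the most, 80 of 210647 windows (0.0380%) remained. The median adult-methylated window was at 65.2% in adult tube feet and 3.31% in embryos. It had 14 CpG sites, against 13 in all domain windows with adult calls. Depth was lower in the adult-methylated windows. Their median was 5.14 calls per CpG site and library in adult tube feet, against 8.23 in all domain windows with adult calls. In embryos it was 5.31 against 7.5. In embryos, 56.0% of these windows were under 5%, against 97.1% of all domain windows with adult calls.

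Adult methylation was most frequent next to a methylated end. In the first window from a methylated end, 11 of 2200 windows (0.5%) were at 50% or more in both adult libraries. The share was 0.0834% in the second window, 0.0838% in the third, 0.121% at 4 to 5 windows, 0.0630% at 6 to 10 windows, 0.0393% at 11 to 20 and 0.0171% beyond 20 windows, or 10.0 kb. The counts behind the shares after the first window are 2 to 9 windows each. Embryo level fell over the same distances, from 3.76% in the first window to 0.637% beyond 20 windows, and its part was not tested. This distance could not be given for 65 of the 109 windows. They lay in domains with no methylated window seen at either end, where the share was 0.0507% of 128215 windows. Such ends met a window with too few calls, a window with no listed CpG site or the end of a scaffold. Whether methylated DNA lay beyond them is thus not known.

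A test per window compared adult tube feet with all embryos over the 367598 windows of the genome with at least 4 CpG sites and 20 calls in every library. It called 359 of the 113022 domain windows tested (0.318%) higher in adult tube feet at an adjusted p under 0.05 and a difference of at least 20 percentage points (quasi-binomial model with moderated dispersion, Benjamini-Hochberg over all windows). The share over all tested windows was 1.06%. Among unmethylated windows outside domains it was 1.64% (1768 of 107945). Only 3 domain windows were called lower in adult tube feet (0.00265%, against 10.3% of all tested windows), as the rule caps the pooled embryo level at 20%. The rule fixed the embryo side of this test, so the counts are a description beside the share over all windows. The windows tested were 41.8% of the domain windows, and both adult libraries lay above all embryo libraries in 5.03% of them, against 5.58% of all tested windows. The count of lower windows was 80 without 24 hpf replicate 1 (11.1% of all tested windows), 19 without 48 hpf replicate 1, 10 and 7 without either 72 hpf library and 1 without either adult library, where the share of all tested windows was 7.74% to 10.3%. With windows chosen and fitted without 24 hpf replicate 2, 623 of 185358 domain windows were higher and 7 lower in adult tube feet, against 1.31% higher and 9.72% lower of all windows then tested.

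The 359 called windows had a median level of 35.3% in adult tube feet and 1.17% in embryos, and the median difference was 31.2 percentage points (20.0 to 90.6). In 348 of them both adult libraries lay above all 6 embryo libraries. The windows were called for an adult rise on the same values, so this count is a description only. They were found in 196 domains (2.59%), of which 149 held 1 called window and 15 held 5 or more. The domain on Scaffold72 held 23, the one on Scaffold189 held 18 and the one on Scaffold1576 held 10. The adult level was thus intermediate in most called windows, and most domains with a call held only 1.

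The same comparison was made on embryo libraries that had not chosen the domains. With domains chosen on the 3 replicate 1 embryo libraries (6294 domains) and tested against the 3 replicate 2 embryo libraries, 293 of 96060 domain windows (0.305%) were higher in adult tube feet, against 0.837% of all tested windows. In that test 151 windows (0.157%) were lower in adult tube feet, against 10.4% of all. With the replicates exchanged, 5662 domains were chosen, and 452 of 142028 windows (0.318%) were higher, against 1.43% of all, and 20 (0.0141%) were lower, against 9.22% of all. The share of higher windows was thus nearly the same in held-out embryos, while the number of lower windows differed between the directions.

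Between embryo stages no domain window was called. The contrast of 72 minus 24 hpf called 0 of 113022 domain windows, against 0.00245% of all tested windows (quasi-binomial model, adjusted p under 0.05). This count is a description, because the rule capped the pooled embryo level and only 6045 of the domain windows were far enough from 0% to be fitted. At an unadjusted p under 0.05 in the quasi-binomial model there were 664 domain windows (0.587%), against 11747 of all tested windows (3.20%). Over fitted windows alone the order was reversed, at about 11% in domains against 6.84% of all 171660 fitted windows. A limma fit of the log-ratio of methylated to unmethylated counts also called 0. Without 24 hpf replicate 1, which leaves replicate 2 alone at that stage and assumes that it varies like the other groups, 151 domain windows were called, against 0.45% of all tested windows.

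The highest adult level at ordinary depth lay in a domain on Scaffold1393 from 288501 to 300000 (11.5 kb, 357 CpG sites), which abuts methylated DNA on its left. It was chosen by rule for the largest share of windows at 50% or more in both adult libraries, 11 of 21 (52.4%), and it also held the longest unbroken stretch of such windows, 10 windows or 5.0 kb. From 288501 to 294500, the level was 80.9% and 78.5% in the adult libraries, against 1.36% to 2.55% (median 1.84%) in the 6 embryo libraries. In the remaining 5.5 kb it was 0.432% and 0.354% in adult tube feet and at most 0.625% in embryos. The domain was thus split into a methylated and an unmethylated part in adult tube feet, and the adult depth there was 1.07 times the embryo depth.

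Single windows of this stretch show the size of the difference. In the window from 290501 to 291000, which has 31 CpG sites, adult tube feet were at 92.4% (516 calls) and 88.7% (397 calls), against 0.656%, 1.10% and 3.36% as the lowest, median and highest embryo library. The difference was 89.3 percentage points. In the window from 290001 to 290500, with 18 sites, adult tube feet were at 90.3% and 83.1%, while 5 of 6 embryo libraries had no methylated call and 48 hpf replicate 1 was at 1.15%. Groups did not overlap in either window. Both are examples chosen among the called windows for their large difference, so no p is given.

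A longer stretch of lower adult level was seen on Scaffold72, in the domain from 852001 to 904000 (52.0 kb, 1037 CpG sites). Of its 92 windows with enough adult calls, 51 were at 20% or more in both adult libraries and 14 at 50% or more. Over the 33.0 kb from 867501 to 900500 the level was 43.3% and 41.4% in adult tube feet, against 1.44% to 3.72% (median 1.72%) in embryos. In the rest of the domain it was 0.703% and 0.475% in adult tube feet and at most 1.39% in embryos. This stretch, taken from the first to the last window at 20% or more in both adult libraries, lay 15.5 kb from the start of the domain and 3.5 kb from its end. It was not unbroken, and its longest run of adjacent windows at 20% or more in both adult libraries was 7.5 kb.

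Further domains had such broken stretches of intermediate adult level, and they were picked after their values had been seen, for holding 10 or more windows at 20% or more in both adult libraries. On Scaffold803, the 24.0 kb from 220001 to 244000 were at 27.7% and 26.1% in adult tube feet and at 0.308% to 0.544% in embryos. On Scaffold1576, the first 10.0 kb of the domain from 63501 to 73500 were at 30.9% and 30.5% in adult tube feet and at 0.0838% to 0.600% in embryos. The window centred 1.75 kb before this domain was at 56.9% and 54.8% in adult tube feet and 0.508% in pooled embryos. Windows between it and the domain were lower in at least 1 adult library. On Scaffold189, the 16.5 kb from 410501 to 427000 were at 24.1% and 23.9% in adult tube feet and at 0.344% to 1.96% in embryos. The rest of this domain was at 7.59% and 7.95% in adult tube feet, and the first listed window past its end at 11.1% and 16.3%. In these stretches on Scaffold803, Scaffold1576 and Scaffold189 the 2 adult libraries differed by less than 2 points and lay above every embryo library. The stretches were picked for high adult windows, so their place above the embryos is a description only. The domains on Scaffold350, Scaffold3 and Scaffold1519 also met this count, over 8.0 to 11.5 kb. Adult replicates 1 and 2 were at 31.5% and 31.6% on Scaffold350. They differed more on Scaffold3 (31.9% and 27.8%) and on Scaffold1519 (34.4% and 25.9%). Unbroken runs of windows at 20% or more in both adult libraries were mostly short: of 570 runs, 473 were a lone window, and 4 were 10 windows or longer. Of those 4, the domain on Scaffold72 held 2, of 15 and 10 windows, and the domains on Scaffold1393 and Scaffold350 held 1 each, of 12 windows.

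**Figure D4:**
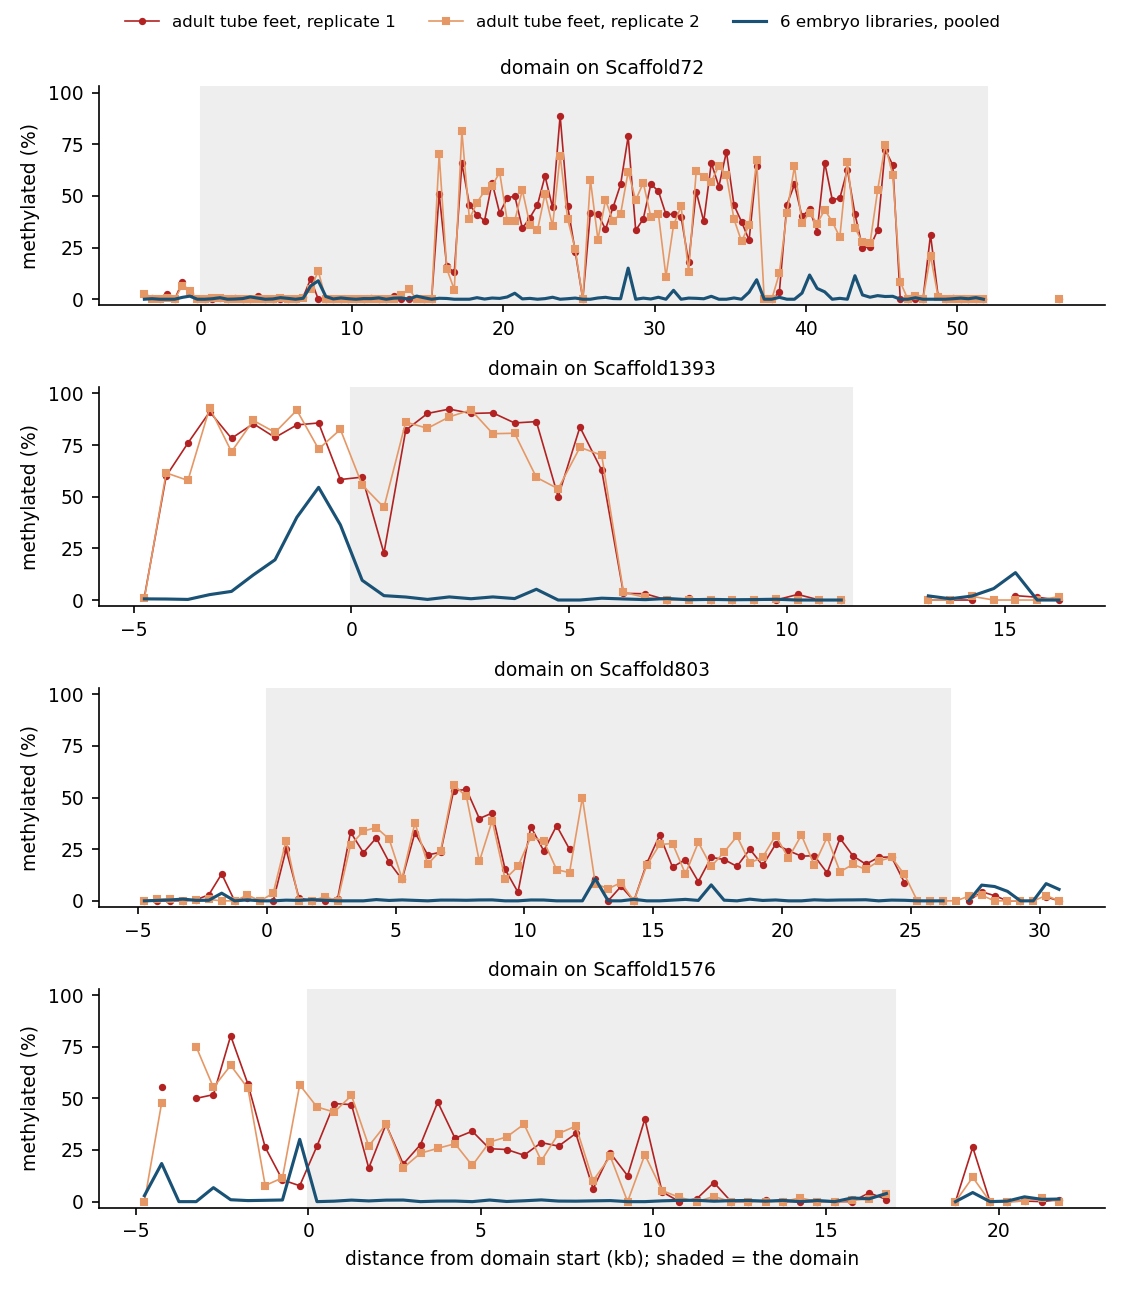
Methylation level (%) per window of 500 bp against distance in kb from the domain start in 4 domains, with the domain shaded, adult replicates 1 and 2 as red circles and orange squares, and the 6 embryo libraries pooled as a blue line. Lines break where windows lack calls. Adult levels are high over stretches of 6.0 to 33.0 kb, broken by low windows on Scaffold72, Scaffold803 and Scaffold1576, where the pooled embryo level is low.

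The other domains with the largest share of adult-methylated windows were carried by few windows. On Scaffold2686 the domain from 8001 to 19000 had 4 such windows among 19, with a pooled level of 19.3% and 22.5% in adult tube feet against 0.585% to 1.93% in embryos. On Scaffold1089 the domain from 85001 to 96000 had 2 among 20, with 16.5% and 18.4% in adult tube feet against 0.354% to 0.841% in embryos. In both, adult tube feet lay above all embryo libraries. The domains on Scaffold1258 (68001 to 78500) and Scaffold396 (265501 to 276000) each had 1 such window among 10. Their pooled adult levels were 6.08% and 9.55% on Scaffold1258, against 0.0854% to 0.753% in embryos, and 2.42% and 2.01% on Scaffold396, against 0.636% to 4.23% in embryos, so the groups overlapped on Scaffold396.

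The 3 windows called lower in adult tube feet were almost free of methylation there and partly methylated in embryos. On Scaffold294 from 417001 to 417500 (14 CpG sites), adult tube feet were at 0% and 0.847%, from 110 and 118 calls, against 13.9%, 18.8% and 30.2% as the lowest, median and highest embryo library (difference -20.4 percentage points). On Scaffold3096 from 15001 to 15500, adult tube feet were at 0.629% and 0%, against 2.67%, 14.7% and 65.0% in embryos. On Scaffold652 from 348501 to 349000, adult tube feet were at 0.997% and 0.938%, against 1.06%, 13.3% and 65.3% in embryos. Groups did not overlap in these windows, which were called for an adult fall on the same values, so this is a description only. On Scaffold652 the lowest embryo library, 72 hpf replicate 1 at 1.06%, was close to adult replicate 1 at 0.997%. The highest embryo value of the windows on Scaffold3096 and Scaffold652 came from 24 hpf replicate 2.

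Adult levels of whole domains have to be read beside adult depth, which the rule did not require. Relative depth is the calls per CpG site of a domain over the mean of the library. In the median domain it was 1.04 times as high in adult tube feet as in embryos, but in 203 domains (2.68%) it was below 0.25 times the embryo depth, in 198 of them in each adult library. These 203 domains had a median of 0.436 calls per CpG site and adult library, against 4.64 per embryo library. They made up 15 of the 24 domains at 20% or more in pooled adult calls and 76 of the 210 domains at 5% or more. In the domains at 0.75 to 1.25 times the embryo depth, 5 of 5375 reached 20% in adult tube feet. Pooled embryo levels reached 5% in 60 domains and 10% in 1. The shares of adult-methylated windows rest on windows with 20 calls in each adult library, and without the 203 domains the share was 0.0499%.

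**Figure D5:**
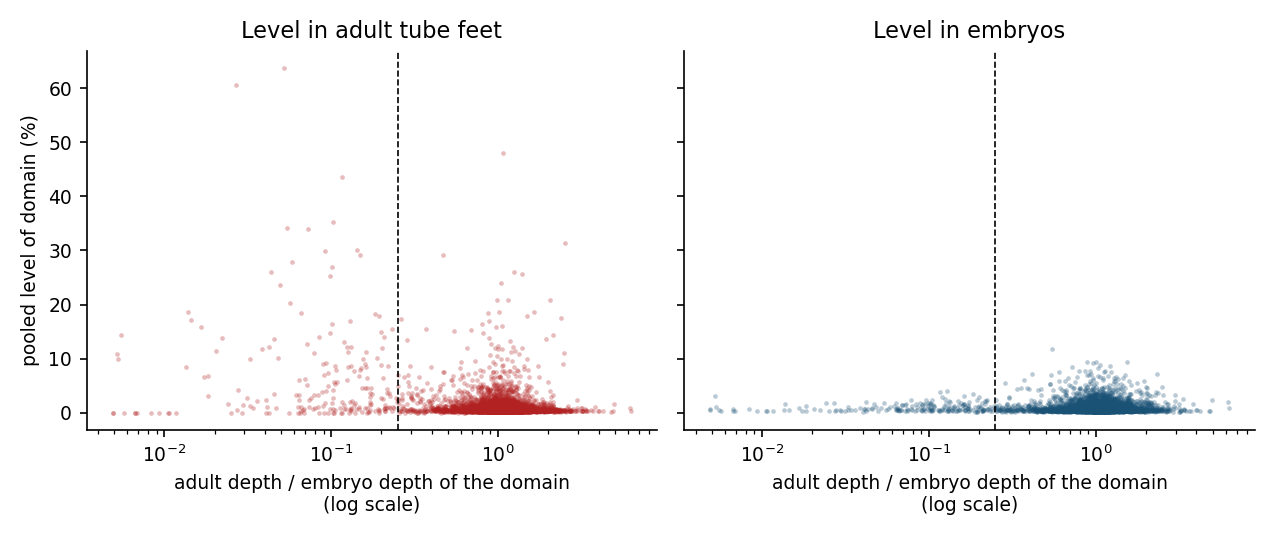
Pooled level (%) in adult tube feet (left) and embryos (right) of each domain against the ratio of adult to embryo depth on a log scale, 1 point per domain, with a dashed line at 0.25. Adult levels scatter widely to the left of the line, where 203 domains lie and 15 of the 24 domains at 20% or more are found, while the embryo levels of those domains stay low.

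The largest differences between the 2 adult libraries came from domains of this kind. The domain on Scaffold1761 from 7501 to 18500 was at 100% in adult replicate 1 and 0% in adult replicate 2, from 1 and 6 calls. On Scaffold2054 the domain from 2001 to 22000 was at 7.41% and 47.6%, from 54 and 21 calls, and on Scaffold98 the domain from 276501 to 290500 was at 11% and 44.5%, from 100 and 128 calls. Their adult depths were 0.0055, 0.0138 and 0.0921 times the embryo depth. The differences thus rest on 1 to 128 calls per adult library. The cause of the low adult depth was not tested.

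The largest range over embryo libraries was set by 24 hpf replicate 2. The domain on Scaffold2732 from 18501 to 28500 was at 28.8% in that library and at 0.926% to 3.08% in the other 5 embryo libraries, with 0.489% and 0.860% in adult tube feet. The domain on Scaffold603 from 51001 to 64000 was at 28.8% in 24 hpf replicate 2 and at 1.36% to 4.02% in the other 5, with 2.30% and 2.52% in adult tube feet. In both domains, the adult levels were within or below the range of those 5 libraries. The depth of all domains relative to the library mean was 1.33 and 1.34 in adult tube feet and 1.27 to 1.40 in 5 embryo libraries, against 0.978 in 24 hpf replicate 2. This library fell below 0.25 times the depth of the other embryo libraries in 225 domains, and no other embryo library did so in any.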

How the data were processed

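The authors deposited CpG calls of 8 libraries, with a methylation percent and the counts of methylated and unmethylated calls per site, not normalized. The file headers name MethylDackel, merged CpG calls and build Spur3.1, and the submitters' processing notes also name Trimmomatic and Picard. The sources used here do not give the aligner or versions. The deposited counts were summed in 500 bp windows without lambda. Domains were chosen as stated in the report, and the members and lists were chosen with earlier results of these data known.

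Windows with at least 4 CpG sites and 20 calls in each library were fitted over all 8 libraries with a quasi-binomial model. Dispersion was moderated with limma 3.58.1 (trend on coverage, lower bound 1), and F-test p-values were Benjamini-Hochberg adjusted over all 367598 windows. Windows with a mean level near 0% or 100% were not fitted and entered the adjustment with the highest possible p-value, which left 6045 of 113022 domain windows fitted. The procedure was tested on simulated data. Exact tests of the levels in domains across libraries are not given, because embryo calls chose the domains.

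Named domains were the 4 longest, the 3 densest in CpG sites, the 6 with the largest share of adult-methylated windows, the one with the longest adult-methylated stretch, the 3 with the largest difference between adult libraries and the 2 with the largest range over embryo libraries, with the 3 scaffolds holding most domains. Windows named for a test were chosen after their values were seen, as examples with large differences or as all windows called lower. Python 3.11.15, numpy 2.4.6, pandas 2.3.3 and scipy 1.17.1 were used.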

Additional observations from a re-analysis of the deposited data

Results flagged for a closer look

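In 3 of 4 measures of the domains, 24 hpf replicate 2 lay far from the other 5 embryo libraries (Dixon's criterion at 95%, which chance meets in about 1 in 20 groups). Its relative depth in domains was 0.978, against 1.27 in the next library. Its domain level minus lambda level was 0.963 percentage points, against 0.530 in the next library. Its share of domain windows at 50% or more was 0.132%, against 0.00795% in the next library. Its pooled level in domains, 1.2%, did not meet the criterion. Low depth, high level and a high share of methylated windows occur in the same library, and their relation was not tested.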

How the results depend on the processing

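The number of domains stayed between 5662 and 10026 under all alternatives. The windows higher in adult tube feet (359) numbered 554 with 10 calls per library, 206 with 40 and 641 at 10 points. Without each embryo library in turn they numbered 347 to 391, against 0.965% to 1.34% of all tested windows. The lower ones (3) numbered 300 at 10 points. Without each embryo library they numbered 4 to 80, against 9.98% to 11.1% of all tested windows. With windows chosen and fitted without 24 hpf replicate 2, chosen after seeing the data, 623 were higher and 7 lower. For 72 minus 24 hpf the count was 0 to 151 without each library. The held-out count (293 of 96060 domain windows) was 452 of 142028 with replicates exchanged, 444 of 133209 with 10 calls and 172 of 59246 with 40. The stage difference ranged from -0.504 to 0.187 points without each library, reversing to 0.187 without 24 hpf replicate 2. The adult-methylated share (0.0517%) was 0.381% at 20% or more, 0.00664% at 80%, 0.0659% with 10 calls, 0.0404% with 40, 0.0917% to 0.0999% from 1 adult library, 0.0342% in domains of 40 or more windows, 0.0432% without their outer windows, 0.0317% in domains chosen at 10% or less and 0.0380% without the 3 most methylated domains (added after seeing the data). The cause of each change was not tested, beyond the change in what each setting counts. Same-numbered libraries deviated together at 24 and 48 hpf (correlation 0.258) but not in the other 5 pairs of groups (-0.0036 to 0.0847), so the numbers were not taken as pairs. A replicate block gave 365 higher, 3 lower and 0 between stages, with 357 of the 359 shared. Depth limits the window test to 41.8% of domain windows. The counts of 359, 554 and 206 higher windows come from 113022, 158910 and 68284 domain windows tested, so the number tested moved with them. Shares over all windows are not given for 10 calls, 40 calls or a difference of 10 points, and these counts are a description.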
